A study of Drosophila melanogaster with 54 samples.

Results

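The comparison concerns male fruit flies (Drosophila melanogaster) that carried 2 copies of NLS-FLucDM-GFP, a firefly luciferase prone to misfolding, fused to green fluorescent protein and directed mainly to the nucleus by a nuclear localization signal. Its members are the 9 libraries of this strain among the 54 of the series. They comprise 3 libraries from flies reared at 18 °C, 3 at 25 °C and 3 at 29 °C, and the 3 at 29 °C were set against the 3 at 18 °C. All were whole males aged 10 days, and all 9 libraries came from flies that carried the transgene. For reference, the difference between 29 °C and 18 °C was also taken in NLS-FLucDM-GFP flies with 1 copy, in Mito-FLucDM-GFP flies with 2 copies of the form directed mainly to mitochondria, and in w1118, the isogenic control with no FLucDM, with 3 libraries in each group. The promoter that drives the transgene is not given in the sources used here, and the level of the transgene was not analysed here because the table has no row for it.

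Misfolded proteins are held by small heat-shock proteins, refolded by Hsp70 and Hsp90 with their cochaperones, or tagged with ubiquitin and degraded by the proteasome. In the nucleus, ubiquitin and SUMO ligases and the p97 segregase extract such proteins for degradation. Warmth also speeds development and metabolism in flies, which do not regulate their body temperature, so flies of the same calendar age differ in physiological age between rearing temperatures.

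Between 12001 and 12099 genes reached 1 TPM (a transcript's share of the library, scaled to its length) in each of the 9 libraries. Pearson r across genes on log2(TPM + 1) was at least 0.990 within a temperature and at most 0.987 between temperatures. The first principal component held 59.2% of the variance and ordered the libraries from 18 °C through 25 °C to 29 °C. One library stood apart: replicate 3 at 18 °C carried very high levels of antimicrobial peptide genes, described with the immune genes below. Male labels were checked with yolk and eggshell genes, whose 5 tested members summed to 12.7 to 15.3 TPM at 29 °C and 6.82 to 8.25 TPM at 18 °C. The seminal fluid genes of the male accessory gland summed to between 27165 and 49221 TPM in the same libraries. The eye pigment gene w stood at 6.99, 8.59 and 9.28 TPM at 29 °C and at 5.79, 7.13 and 6.81 TPM at 18 °C. These values overlapped (log2 difference 0.29, adjusted p = 0.0978), and w does not check the number of transgene copies.

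Most genes tested, 54.1%, differed between the temperatures. At 29 °C, 3747 of 12555 genes tested (29.8%) were higher than at 18 °C and 3041 (24.2%) were lower, by limma's moderated test on log2(TPM + 1) with Benjamini-Hochberg adjustment at 0.05. A difference of at least 2-fold was found in 250 of the higher and 243 of the lower genes, and the median gene differed by 0.04 on the log2 scale. Scaling moved the split between higher and lower genes by less than 10 percentage points, but the excess of higher genes depended on it. Of the genes called 55.2% were higher, against 50.7% with quantile and 49.3% with median-ratio scaling. The labels number the libraries of a group but do not say whether they came from separate cultures. If they did not, the spread behind the p-values is partly technical.

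Of the small heat-shock proteins, which bind unfolding proteins without using ATP, 4 of 11 tested genes rose (36.4%) and 2 fell (18.2%) at 29 °C. These shares were not far from the 29.8% and 24.2% of all genes tested, and the median was 0.04, as over all genes. Hsp22 (FBgn0001223, 3L, 9372931 to 9374964 on BDGP6), a small heat-shock protein of mitochondria, changed most. It stood at 547, 465 and 422 TPM at 29 °C, against 23.4, 22.8 and 25.0 TPM at 18 °C. The lowest 29 °C library thus lay far above the highest 18 °C library, and the log2 difference was 4.27 ± 0.24 (SE, adjusted p = 8.16e-19). The annotation of CG4456 covers the whole of Hsp22, so reads of the pair may have been exchanged. The gene l(2)efl (2R, 23684651 to 23685543), related to alpha-crystallin B of vertebrates, stood at 652, 469 and 549 TPM at 29 °C and at 187, 176 and 153 TPM at 18 °C. Its groups did not overlap either, with a log2 difference of 1.68 ± 0.09 (adjusted p = 1.2e-19). Hsp26 and Hsp23, cytosolic members, rose by 0.57 and 0.66 on the log2 scale, also without overlap. CG7409, a related gene, fell, with 275, 301 and 290 TPM at 29 °C and 747, 772 and 628 TPM at 18 °C (log2 -1.30 ± 0.08, adjusted p = 5.95e-18), and the low-level Hsp67Ba also fell (log2 -0.46). Hsp27, CG14207, CG4461, CG13133 and Hsp67Bc did not pass the test, with log2 differences between -0.29 and 0.08. Summed over the 11 genes, the level was 2206 to 2496 TPM at 29 °C and 1748 to 1931 TPM at 18 °C.

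**Figure D1:**
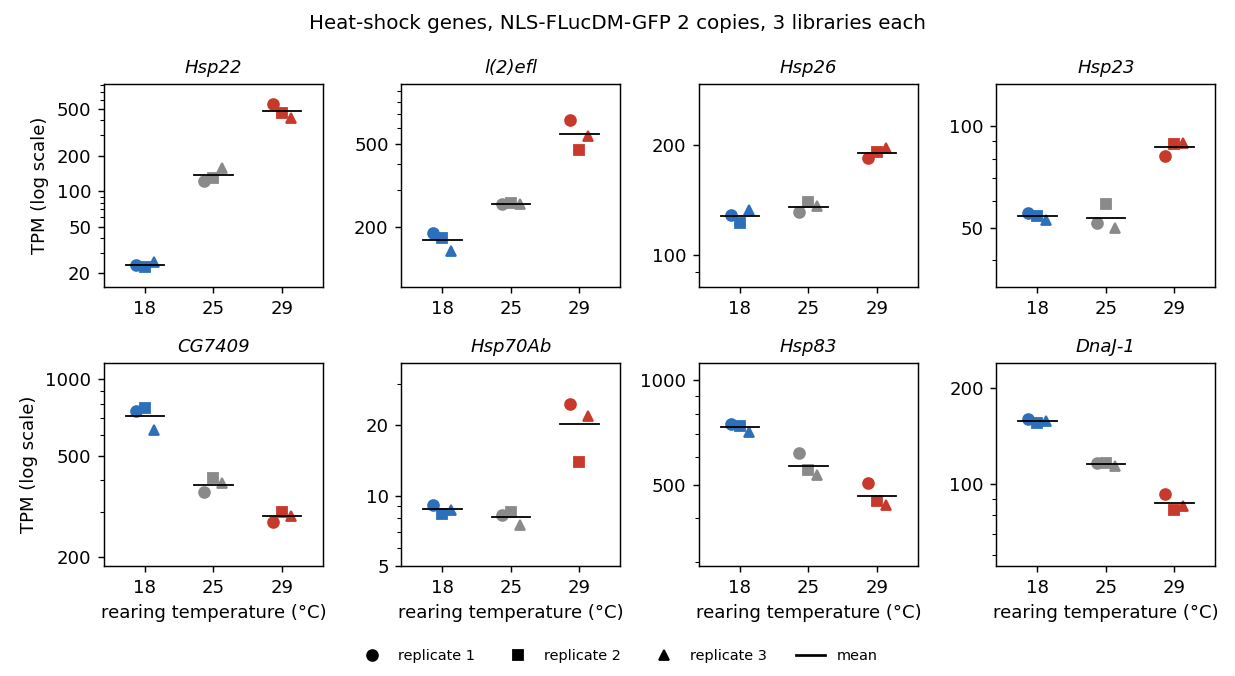
TPM on a log axis (a separate range in each panel) of 8 heat-shock genes in each library of the NLS-FLucDM-GFP 2 copies strain at 18, 25 and 29 °C, with bars at the group means. Hsp22 and l(2)efl climb at both steps, Hsp26, Hsp23 and Hsp70Ab are higher at 29 °C only, and CG7409, Hsp83 and DnaJ-1 decline.

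The inducible Hsp70 genes stayed at low levels. Hsp70Ab (3R, 11958535 to 11960909) had 24.6, 13.9 and 22.0 TPM at 29 °C and 9.13, 8.35 and 8.71 TPM at 18 °C, groups that did not overlap (log2 1.08 ± 0.21, adjusted p = 3.2e-05). Hsp70Bc, with 3.11, 2.00 and 1.80 TPM at 29 °C and 0.574, 0.773 and 0.364 TPM at 18 °C, and Hsp70Ba, under 1.4 TPM in every one of these libraries, rose as well. Hsp70Bb rose by 0.55 (adjusted p = 0.00519), but its groups overlapped and the call was lost without replicate 1 at 29 °C (log2 0.26, adjusted p = 0.167). The Hsp70 copies are nearly identical, so reads may have been exchanged between them. Hsp83, the cytosolic Hsp90, fell, with 505, 450 and 437 TPM at 29 °C against 746, 738 and 707 TPM at 18 °C (log2 -0.66 ± 0.05, adjusted p = 9.84e-14). DnaJ-1, the Hsp40 partner of Hsp70, fell to 93.1, 82.8 and 85.2 TPM at 29 °C, against 160, 155 and 157 TPM at 18 °C (log2 -0.85 ± 0.04). Both fell without overlap. Hsf, the transcription factor of the heat-shock response, and Hsp68, CG4456, stv and Hsp70Bbb did not pass.

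Genes of general protein folding and degradation rose by small amounts, where 29.8% of all genes tested rose and 24.2% fell. None of the 32 proteasome subunits tested fell and 26 rose, with a median of 0.21 on the log2 scale against 0.04 over all genes. The lid subunit Rpn8 stood at 143, 135 and 140 TPM at 29 °C and at 96.8, 102 and 95.9 TPM at 18 °C (log2 0.50 ± 0.05, adjusted p = 4.58e-12), without overlap. Levels of all 3 libraries at 29 °C lay above all 3 at 18 °C in 28 of the 32 subunits, against 32.1% of all genes. TRiC and prefoldin, which fold actin and tubulin, had 10 of 14 members higher and none lower, CCT8 with a log2 difference of 0.36. The 10 became 5 without replicate 1 at 29 °C, and also when only the 6 libraries were fitted. Of 15 constitutive chaperones and cochaperones 9 rose, including the abundant Hsc70-4 (1443, 1251 and 1282 TPM at 29 °C, 1082, 1042 and 1033 TPM at 18 °C) and the Hsp90 activator CG1416 (log2 0.48), and 2 fell, including the Hsp70 cognate Hsc70-1 (log2 -0.32). In the mitochondrial matrix, 10 of 17 chaperones and proteases rose and 1 fell. The Hsp10 homologue CG11267 rose by 0.74, its partner Hsp60A by 0.39 and the mitochondrial Hsp70 Hsc70-5 by 0.44. Here the count was 6 without replicate 3 at 18 °C, without replicate 1 at 29 °C, or with median-ratio scaling. Endoplasmic reticulum folding and degradation genes were mixed, with 11 of 23 higher, such as the disulfide isomerase CaBP1 (log2 0.64), and 4 lower.

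Of 20 ubiquitin, SUMO and segregase genes of nuclear quality control, 8 were higher at 29 °C and 2 lower. Their median of 0.03 was close to that of all genes, and became -0.01 with median-ratio scaling, without replicate 3 at 18 °C or without replicate 1 at 29 °C. The SUMO protease gene velo stood at 54, 51.3 and 48.9 TPM at 29 °C against 28.4, 28.6 and 26.8 TPM at 18 °C (log2 0.86 ± 0.06, adjusted p = 1.69e-15). TER94, the fly p97, stood at 306, 294 and 288 TPM at 29 °C against 244, 238 and 227 TPM at 18 °C (log2 0.33). Neither gene's groups overlapped. The cofactors of TER94 split, Ufd1-like rising by 0.28 and Npl4 falling by 0.32 on the log2 scale. The SUMO ligase Su(var)2-10 fell by 0.43. SUMO itself (smt3, log2 0.15) and the SUMO activating subunit Uba2 (log2 0.17) passed, but the call was lost in 4 and 7 alternative settings. The SUMO-conjugating enzyme lwr (log2 -0.04) and the SUMO-targeted ligase dgrn (log2 -0.13) did not pass.

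Of the other nuclear groups, nucleolar, transport and DNA damage lists held more rises than falls, and a larger share of rises than the 29.8% of all genes tested, whose median was 0.04. Nucleolar and ribosome assembly factors rose in 21 of 33 genes and fell in 2 (median 0.23), led by the nucleolar GTPase Non1 with 604, 521 and 550 TPM at 29 °C and 329, 319 and 291 TPM at 18 °C (log2 0.83 ± 0.06). Importins, exportins and nuclear pore genes rose in 18 of 34 and fell in 2 (median 0.16), including the importin-beta gene Fs(2)Ket (log2 0.51) and Ran (log2 0.26). Of 26 chromatin and histone genes 8 rose (30.8%) and 1 fell (median 0.07; 7 and 3 with quantile or median-ratio scaling), a share of rises near that of all genes. The largest rise among them was in Ssrp (2R, 23806361 to 23809004), a subunit of the histone chaperone FACT. It stood at 58.4, 40.9 and 41.3 TPM at 29 °C, against 17.5, 19.2 and 18.4 TPM at 18 °C (log2 1.29 ± 0.09, adjusted p = 1.42e-15), and no libraries of the groups overlapped. Of 33 DNA damage genes 16 rose and 1 fell (median 0.21). The end-joining heterodimer changed in both subunits: Ku80 stood at 26.1, 20.4 and 21.0 TPM at 29 °C and at 10.5, 10.9 and 10.9 TPM at 18 °C (log2 0.99 ± 0.07), and its partner Irbp rose by 0.96. Splicing factor genes moved both ways, 10 of 22 rising and 5 falling (median 0.11). In the nuclear lamina list, whose median of 0.06 was close to that of all genes, 4 of 9 genes rose and none fell (1 with quantile or median-ratio scaling): the lamin Lam (log2 0.22), the chromatin-binding baf (0.41) and the inner membrane proteins bocks (0.68) and Ote (0.65).

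**Figure D2:**
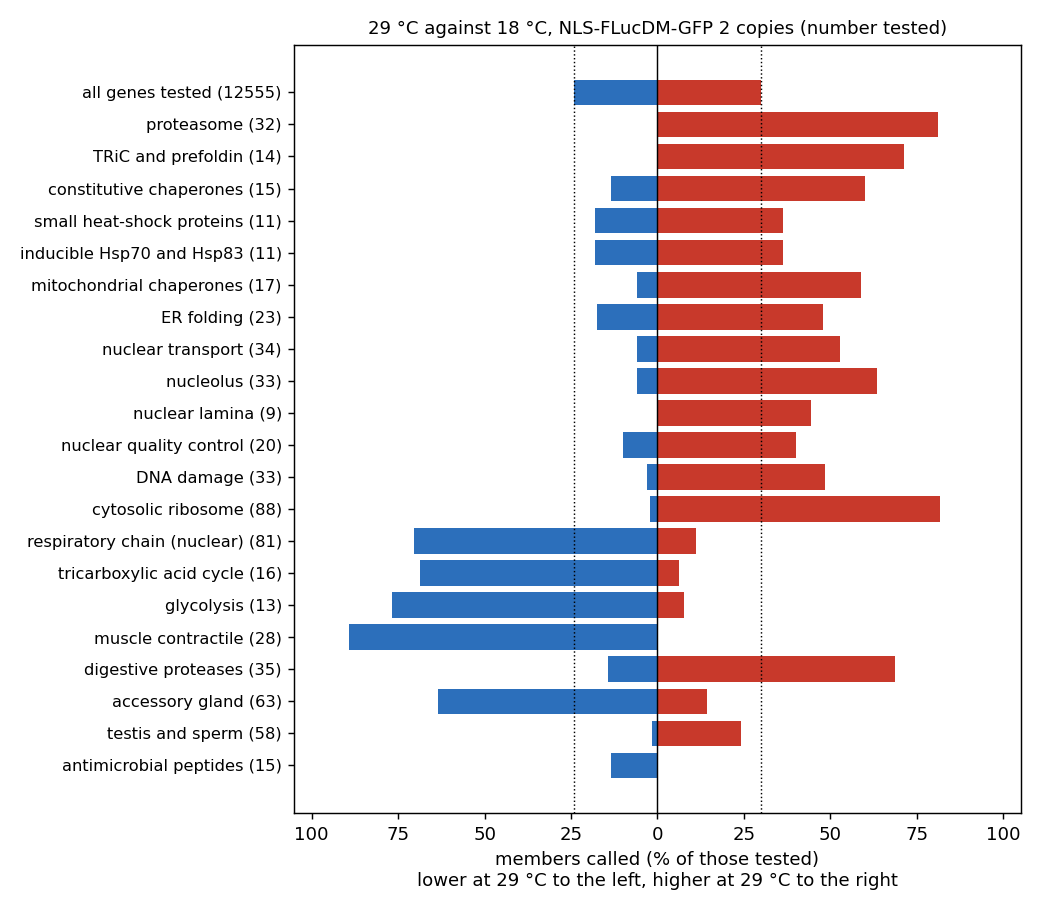
Percentage of the tested members of each gene group called higher (right) or lower (left) at 29 °C than at 18 °C in the NLS-FLucDM-GFP 2 copies strain, with dotted lines at the shares over all genes. Proteasome, TRiC and cytosolic ribosome groups extend to the right, and energy metabolism, muscle and accessory gland groups to the left.

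Genes of energy metabolism mostly fell, against 24.2% of all genes tested that fell and 29.8% that rose. Of 81 nuclear-encoded subunits of the respiratory chain and ATP synthase 57 fell and 9 rose, with 3 rising without replicate 2 at 29 °C (median -0.50). The ATP synthase subunit ATPsynbeta stood at 959, 930 and 922 TPM at 29 °C against 2308, 2286 and 2113 TPM at 18 °C (log2 -1.25 ± 0.06, adjusted p = 1.65e-20). The succinate dehydrogenase subunit SdhB stood at 257, 244 and 234 TPM at 29 °C against 639, 643 and 613 TPM at 18 °C (log2 -1.36 ± 0.07). In both genes the groups lay far apart. Tricarboxylic acid cycle enzymes fell in 11 of 16 genes and rose in 1, and glycolytic enzymes fell in 10 of 13 and rose in 1. Of the glycolytic genes, Gapdh1 fell by 1.39 and Pgk fell by 1.24 on the log2 scale. The adenine nucleotide exchanger sesB, which carries ATP out of mitochondria, fell by 0.99. Transcripts of the mitochondrial genome were less uniform, 7 of 13 lower and 2 higher (4 lower without replicate 1 at 29 °C), with mt:Cyt-b falling by 0.54 and mt:CoI rising by 0.34. Glycogen enzymes fell, GlyS (the synthase) by 1.11 and GlyP (the phosphorylase) by 1.01, while the maltases Mal-A3 and Mal-A4 rose by 1.46 and 1.62.

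Contractile genes of muscle fell almost throughout, 25 of 28 lower and none higher (median -0.77). Mf (3R, 15170625 to 15181510), a myofilament protein, stood at 218, 207 and 201 TPM at 29 °C and at 1165, 1186 and 1176 TPM at 18 °C. The replicates lay close together and far from the other temperature (log2 -2.49 ± 0.06, adjusted p = 2.3e-30). The troponin C genes TpnC41C and TpnC25D fell by 1.73 and 1.57, and the muscle LIM protein gene Mlp84B by 1.14. All 3 libraries at 29 °C lay below all 3 at 18 °C in 25 of the 28 genes, against 25.5% of all genes. Fhos, a formin that assembles sarcomeres of flight muscle, stood at 37.8, 28.4 and 27.9 TPM at 29 °C and at 132, 152 and 142 TPM at 18 °C (log2 -2.15). RNA came from whole flies, so fewer cells of a type and less RNA per cell cannot be told apart, for muscle and for every organ below.

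Cytosolic ribosomal protein genes rose in 72 of 88 cases and fell in 2, with a median of 0.27. RpS29 stood at 1298, 1272 and 1294 TPM at 29 °C against 815, 799 and 799 TPM at 18 °C (log2 0.68 ± 0.04), without overlap. The 88 genes together held 97629 to 103100 TPM at 29 °C and 81302 to 85494 TPM at 18 °C. ATF4 pathway genes, which govern translation and amino acid synthesis under stress, rose in 15 of 24 (62.5%) and fell in 5 (20.8%). Over all genes tested 29.8% rose and 24.2% fell. The ATF4 gene crc stood at 457, 426 and 435 TPM at 29 °C and at 306, 306 and 310 TPM at 18 °C (log2 0.51 ± 0.04, adjusted p = 8.09e-16), and the transcription factor Xrp1 rose by 0.54.

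Among the 10 largest rises by the naming rule, Hsp22 was the only heat-shock gene. Lsp1beta (2L, 898500 to 901316), a storage protein of the larval fat body, stood at 271, 194 and 181 TPM at 29 °C and at 2.52, 3.05 and 6.95 TPM at 18 °C (log2 5.46 ± 0.24, adjusted p = 6.38e-22). Its relative Lsp2 rose by 1.98. Cda9 (2R, 17128480 to 17130334), a chitin deacetylase, stood at 32.8, 32.9 and 31.5 TPM at 29 °C and at 0.443, 0.141 and 0.434 TPM at 18 °C (log2 4.65). Arc1, whose capsid-like protein carries RNA from motor neurons to muscle, stood at 762, 511 and 715 TPM at 29 °C and at 64.7, 62.1 and 86.0 TPM at 18 °C (log2 3.20). None of the 3 overlapped between temperatures. The lysosomal mannosidases LManIII and LManIV, neighbours on 2L, rose by 3.38 and 3.47, the sterol-binding protein gene Npc2e by 3.19, the digestive protease gene Jon66Ci by 3.15, the mesoderm transcription factor twi by 2.85 and Osi12 by 2.67. Npc2e had 36.4, 31.4 and 46.7 TPM at 29 °C but 1.10, 0.814 and 19.0 TPM at 18 °C, the last in the library with high antimicrobial peptides.

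The largest falls included stress and secreted peptides. The haemolymph stress peptide gene TotA (3R, 20871036 to 20871700) stood at 116, 94.7 and 124 TPM at 29 °C and at 1664, 934 and 1195 TPM at 18 °C (log2 -3.46 ± 0.39, adjusted p = 5.28e-10). Its neighbour TotC fell by 3.98, and 4 of 5 Turandot genes fell. Nplp3, a neuropeptide-like precursor, stood at 42.7, 36.1 and 43.8 TPM at 29 °C and at 330, 287 and 313 TPM at 18 °C (log2 -2.90 ± 0.10). The feeding and clock output gene to stood at 60.4, 59.7 and 60.0 TPM at 29 °C and at 302, 368 and 679 TPM at 18 °C (log2 -2.79). No libraries of the groups overlapped in these genes. Further falls were the ecdysone-induced Eig71Eb (log2 -2.74), the seminal protein Sfp24Ba (log2 -2.61), the metallothionein MtnB (log2 -2.45), which binds heavy metals, and the lysozyme LysP (log2 -2.10). Among genes with CG numbers, which the naming rule left out and which were picked here after their values were seen, CG8620 rose by 4.11 and CG43156 by 3.93, and CG31832 fell by 4.43 and CG42782 by 4.17.

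Organ genes moved in different directions, where 29.8% of all genes tested rose and 24.2% fell. Digestive proteases and lysozymes of the gut rose in 24 of 35 genes and fell in 5 (median 0.75); Jon25Biii stood at 786, 773 and 690 TPM at 29 °C and at 201, 256 and 209 TPM at 18 °C (log2 1.76). Trypsin and Jonah genes have close relatives that may have exchanged reads. Of 63 accessory gland genes 40 fell and 9 rose (median -0.48). The seminal protein EbpII stood at 899, 1117 and 1071 TPM at 29 °C against 3022, 3078 and 3390 TPM at 18 °C (log2 -1.62 ± 0.09). Testis genes mostly did not pass, with 14 of 58 higher (24.1%, below the share of all genes) and 1 lower (median 0.09). Among them the mitofusin fzo of spermatids rose by 0.53. In the fat body list 7 of 9 genes rose and 1 fell, with the iron carrier Tsf1 at 1888, 1578 and 1554 TPM at 29 °C and 530, 575 and 853 TPM at 18 °C (log2 1.38). That list includes Arc1, which is better known from neurons. Photoreceptor genes rose in 12 of 28 and fell in 6, the opsin Rh6 by 1.58 and the light-gated channel trpl by 1.29. The clock activator Clk stood at 29.0, 33.7 and 29.6 TPM at 29 °C and at 9.26, 8.49 and 8.51 TPM at 18 °C (log2 1.70 ± 0.09, adjusted p = 1.27e-19). The time of day of collection is not given in the sources used here, and its part in the clock genes was not tested. Detoxification genes split, with 19 cytochrome P450 genes higher (25.0%) and 32 lower (42.1%) of 76. Of 34 glutathione transferases 13 were higher (38.2%) and 11 lower (32.4%), shares not far from those of all genes.

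Antimicrobial peptide genes could not be compared without regard to 1 library. Mtk, the antifungal metchnikowin, had 162, 168 and 136 TPM at 29 °C, against 28.6, 41.3 and 2063 TPM at 18 °C, the last in replicate 3. DptA, a diptericin against Gram-negative bacteria, had 183, 75.8 and 196 TPM at 29 °C, against 27.1, 80.0 and 2811 TPM at 18 °C. The groups overlapped in both genes, in Mtk through that library alone. With all libraries 2 of 15 antimicrobial peptide genes fell, none rose, and the median was -0.40: Drsl5 fell by 0.73 (adjusted p = 2.5e-08), and Drs by 1.25 (adjusted p = 0.0129). Without replicate 3 at 18 °C, 2 rose and 1 fell and the median turned to 0.71. The 2 that rose were the cecropins CecB (log2 0.95) and CecC (log2 2.77), and Drs no longer passed (log2 -0.63, adjusted p = 0.232), while Drsl5 still fell by 0.69. Among 28 other immune peptide and peptidoglycan recognition genes 5 rose and 8 fell (median -0.01), and without that library 7 rose and 6 fell (median 0.15). The gut peptidoglycan amidases PGRP-SC1b and PGRP-SC2 rose with all libraries, by 2.05 and 1.37, and without that library, by 2.16 and 2.00; the PGRP-SC2 groups overlapped through that library. The immune-induced peptide gene IM2 fell by 0.95 with all libraries and by 0.67 without that one (adjusted p = 0.000961). Chosen after their values were seen, IM4, CG43202 and PGRP-LA also fell in both fits, by 0.55, 1.21 and 0.26 with all libraries and by 0.37, 0.80 and 0.20 without it, as did CG16836 and CG18107. IM1 and IM23 no longer passed without it.

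**Figure D3:**
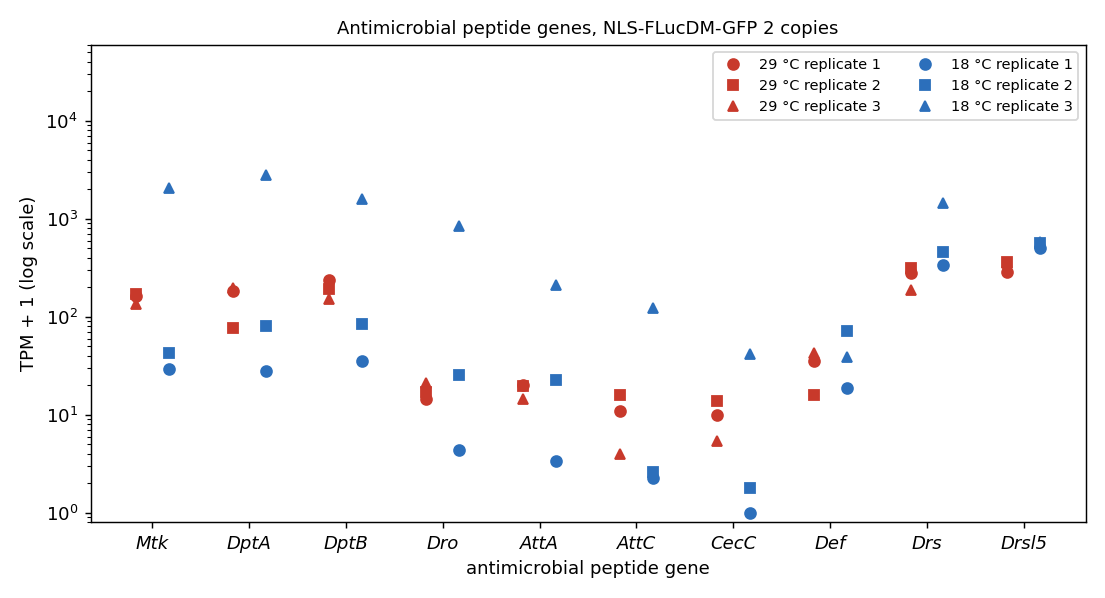
TPM + 1 on a log axis of 10 antimicrobial peptide genes in the NLS-FLucDM-GFP 2 copies strain, 29 °C left and 18 °C right for each gene, 1 symbol per library. Replicate 3 at 18 °C lies above the other libraries of its group in 9 of the 10 genes, all except Def, while the 29 °C libraries lie closer together.

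The 25 °C libraries show where along the course the groups changed. Both steps share the 25 °C libraries. At 25 °C against 18 °C, 1900 genes (15.1%) were higher and 2347 (18.7%) lower, and at 29 °C against 25 °C, 3095 (24.7%) were higher and 2011 (16%) lower. With quantile or median-ratio scaling the share of higher genes at the upper step was 50.7% and 49.3%, not 60.6%. Cytosolic ribosomal proteins rose at the lower step, 80 of 88 higher and 1 lower, and at the upper step 4 were higher and 13 lower, with a median of -0.02 that was 0.03 with quantile scaling (14 higher and 6 lower). Without replicate 3 at 25 °C that step had 11 higher and 6 lower. Proteasome subunits rose in 10 of 32 at the lower and 25 at the upper step (14 with median-ratio scaling, 16 without replicate 1 at 29 °C), with none lower at either. DNA damage genes had 3 higher and 4 lower at the lower step, then 19 of 33 higher and none lower at the upper step. Testis genes had 3 higher and 19 lower of 58 at the lower step (8 lower without replicate 1 at 18 °C or replicate 3 at 25 °C, 11 without replicate 1 at 25 °C), then 35 higher and 1 lower. Nuclear-encoded respiratory chain genes fell at both, 50 and then 54 of 81, and so did muscle genes, 25 and then 18 of 28. Hsp22 averaged 23.7 TPM at 18 °C, 136 TPM at 25 °C and 478 TPM at 29 °C, passing at both steps (log2 2.47 and 1.80). Ssrp passed only the upper step (log2 0.17, adjusted p = 0.155, then 1.12, adjusted p = 7.8e-13), as did Hsp70Ab (log2 -0.10, adjusted p = 0.746, then 1.19, adjusted p = 2.18e-05). Both lay below the midpoint of the ends at 25 °C, Ssrp by a log2 of -0.48 (adjusted p = 2.44e-05) and Hsp70Ab by -0.64 (adjusted p = 0.00852).

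**Figure D4:**
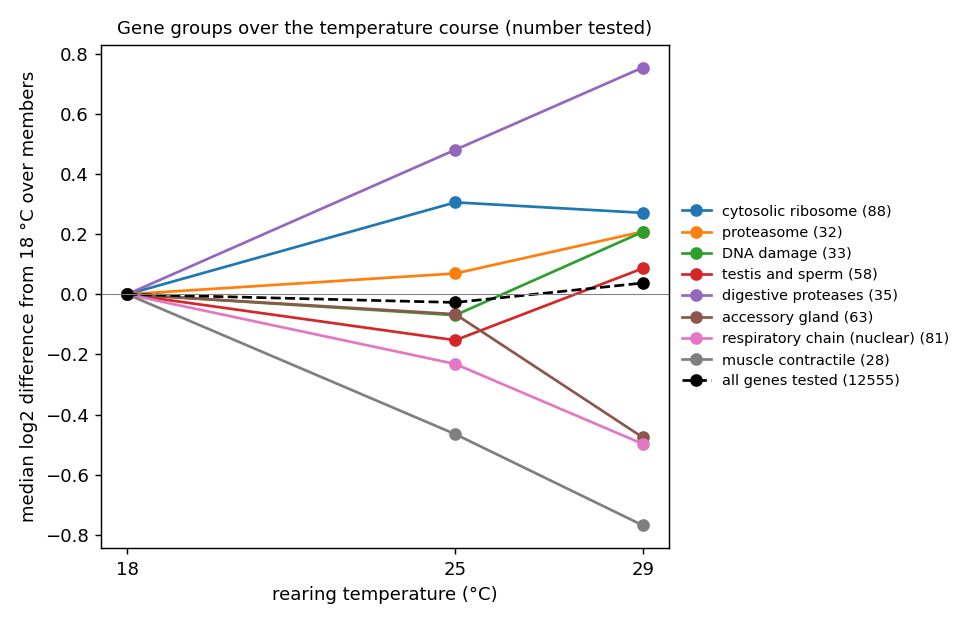
Median log2 difference from 18 °C over the tested members of 9 gene groups, at 18, 25 and 29 °C in the NLS-FLucDM-GFP 2 copies strain. The cytosolic ribosome group reaches its level by 25 °C (0.31, then 0.27), DNA damage and testis groups lie below 0 at 25 °C and above it at 29 °C, and the muscle group falls throughout (-0.46, then -0.77).

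Some genes at 25 °C lay away from the midpoint of the ends. In that contrast 1289 genes (10.3%) were higher and 1855 (14.8%) lower at 25 °C, 25.0% in all. The higher share of 41% became 50.6% and 52.1% under quantile and median-ratio scaling. The scavenger receptor gene ninaD, which takes up carotenoids, averaged 37.5 TPM at 18 °C, 79.3 TPM at 25 °C and 38.6 TPM at 29 °C, and its 3 libraries at 25 °C exceeded all 6 others (log2 1.04 ± 0.10, adjusted p = 1.54e-09). TotX (log2 1.17), lectin-21Ca (0.75) and thetaTry (0.68) were also highest at 25 °C. The antennal protein gene a10, with 126, 126 and 141 TPM at 18 °C, 48.8, 74.5 and 33 TPM at 25 °C and 94.6, 88.9 and 98.4 TPM at 29 °C, was lowest at 25 °C (log2 -1.15), as were the odorant-binding protein Obp69a (log2 -1.25), scpr-B (-1.18) and the defensin Def (-1.87), whose call was lost without replicate 3 at 25 °C.

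The difference between 29 °C and 18 °C in this strain was then set against that in w1118. Both differences were tested against each other in 1 model, gene by gene, and 19.9% of genes passed. The difference was higher in the NLS strain in 1323 genes (10.5%) and lower in 1180 (9.40%) of 12555, a split of 52.9% higher that became 35.3% with median-ratio scaling. Every gene called in the small heat-shock and inducible lists had the higher difference in the NLS strain. Of 15 constitutive chaperones and cochaperones 2 were higher and 1 lower. Of 17 mitochondrial chaperones and proteases 1 was higher and 2 lower. In w1118, Hsp22 stood at 76.3, 81.7 and 73.2 TPM at 29 °C and at 13.8, 10.8 and 12.7 TPM at 18 °C, a log2 difference of 2.54, and the difference in the NLS strain exceeded this by 1.73 ± 0.34 (adjusted p = 0.00019). Small heat-shock genes were called higher in 3 of 11 (6 with quantile scaling): Hsp22, l(2)efl (0.69) and Hsp26 (0.32). Inducible genes were called higher in 5 of 11 and lower in none: Hsp70Ab (1.23), Hsp70Bb (0.94), Hsp70Bc (1.36), Hsp68 (0.43) and Hsp83 (0.41). Hsp70Ab had 12.9, 8.93 and 10.1 TPM at 29 °C and 11.9, 10.4 and 13.2 TPM at 18 °C in w1118, values that overlapped. For Hsp83 the difference was less negative, log2 -0.66 in the NLS strain and -1.07 in w1118.

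Some nuclear genes differed from w1118 too, and so did genes of other groups. The difference was higher in 10 of 23 endoplasmic reticulum folding genes (43.5%) and lower in none. Of 24 ATF4 pathway genes it was higher in 10 (41.7%) and lower in 4. Of the 20 nuclear protein quality control genes none was called in either direction by limma, and none had an unadjusted p under 0.05 (median -0.02). Of the 9 lamina genes 4 (44.4%) had a higher difference than in w1118: Ote by 0.80, bocks by 0.60, baf by 0.39 and Lam by 0.36. They are the 4 that rose at 29 °C, but both contrasts use the same NLS libraries, so their agreement is not independent. None of the 9 lamina genes had a lower difference, but 1 did with quantile and 2 with median-ratio scaling. Ssrp had 25.7, 26.7 and 28.7 TPM at 29 °C and 22.3, 23.7 and 21.6 TPM at 18 °C in w1118, and its difference was higher in the NLS strain by 1.04 ± 0.13 (adjusted p = 7.24e-08). The difference was higher in 9 of 33 DNA damage genes (27.3%) and lower in 1, against 10.5% higher and 9.40% lower over all genes. It was higher in 4 of 26 chromatin and histone genes (15.4%, not far from all genes) and lower in none. Nuclear transport genes were higher in 7 of 34 and lower in 2, and nucleolar genes higher in 6 of 33 and lower in none. Splicing factor genes were higher in 7 of 22 and lower in 1 (4 and 3 with median-ratio scaling).

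The muscle and energy differences were more negative than in w1118. They were lower in 20 of 28 muscle genes and higher in none (median -0.38). Of 81 nuclear-encoded respiratory chain genes 46 were lower (30 with quantile scaling) and 1 higher. Tricarboxylic acid cycle genes were lower in 10 of 16. Mf in w1118 stood at 276, 302 and 287 TPM at 29 °C and at 785, 862 and 856 TPM at 18 °C, and its difference was lower in the NLS strain by a log2 of -0.96 ± 0.09 (adjusted p = 1.64e-10). Its level in the NLS strain lay below that of w1118 at 29 °C and above it at 18 °C in every library. TpnC41C differed by -0.73. Digestive proteases were higher in 20 of 35 and lower in 2 (median 0.77). Accessory gland genes were higher in 24 of 63 and lower in 4 (median 0.22), and the 24 became 15 with median-ratio scaling and between 14 and 15 without replicate 1 at 18 °C or replicate 2 at 29 °C of the NLS strain, or without replicate 2 at 18 °C or replicate 1 at 29 °C of w1118.

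**Figure D5:**
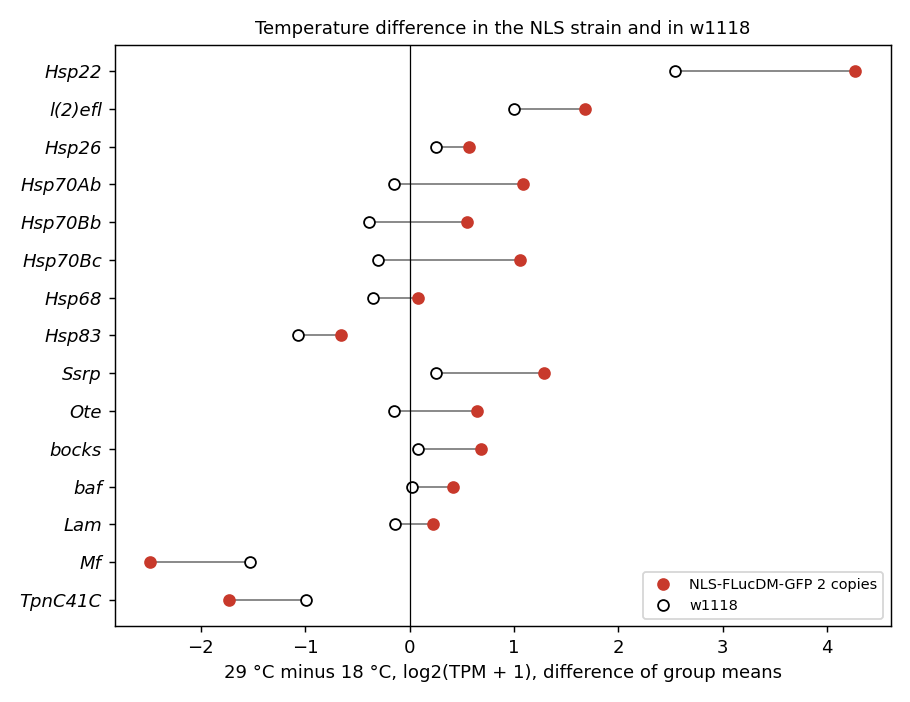
Difference between 29 °C and 18 °C in group means of log2(TPM + 1), in the NLS-FLucDM-GFP 2 copies strain (filled) and in w1118 (open), for 15 heat-shock, nuclear and muscle genes whose differences passed the test between the strains. The genes were picked by hand among those that passed. In this selection filled points lie to the right of open ones for heat-shock and nuclear genes, and to the left for Mf and TpnC41C. Other nuclear genes differed: of 34 nuclear transport genes 7 were higher and 2 lower, and of 20 quality control genes none passed.

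Against the other transgenic strains fewer genes passed, 4.21% for NLS with 1 copy and 5.27% for Mito with 2 copies. Against NLS with 1 copy the difference was higher in 265 genes (2.11%) and lower in 264 (2.10%), and against Mito with 2 copies higher in 301 (2.40%) and lower in 361 (2.88%). With median-ratio scaling the higher share against NLS 1 copy was 35.6%, not 50.1%, and with quantile scaling that against Mito 2 copies was 60.6%, not 45.5%. The Hsp22 difference did not pass against either strain: Hsp22 stood at 591, 638 and 383 TPM at 29 °C and 19.3, 16.7 and 17.1 TPM at 18 °C in NLS 1 copy (difference -0.55, adjusted p = 0.365), and at 654, 855 and 708 TPM at 29 °C and 28.3, 32.4 and 38 TPM at 18 °C in Mito 2 copies (difference -0.18, adjusted p = 0.825). The Ssrp difference was higher than in NLS 1 copy by 0.62 (adjusted p = 0.00265) and than in Mito 2 copies by 0.59 (adjusted p = 0.00308). Hsp83 (0.47) and DnaJ-1 (0.36) differed from NLS 1 copy, where both genes fell more, and l(2)efl (0.97) and Hsp70Ab (1.71) differed from Mito 2 copies. Of the 11 inducible genes 3 were higher against NLS 1 copy and 5 against Mito 2 copies, the 5 becoming 3 without replicate 3 at 18 °C or replicate 1 at 29 °C of NLS 2 copies, or replicate 1 at 29 °C of Mito 2 copies. Muscle genes were lower in 11 of 28 against NLS 1 copy and in 3 against Mito 2 copies, with none higher in either. Of the 81 nuclear-encoded respiratory chain genes 15 were lower and none higher against NLS 1 copy, and against Mito 2 copies none was lower and 1 higher. Of 13 transcripts of the mitochondrial genome, 7 were higher against Mito 2 copies (3 with quantile scaling) and none lower. Against NLS 1 copy none of the 13 was higher and 1 was lower. Of the 16 tricarboxylic acid cycle genes 1 was lower and none higher against NLS 1 copy, and none was lower and 2 higher against Mito 2 copies. Of the 9 lamina genes Ote (0.77) and Lam (0.32) were higher against NLS 1 copy, and against Mito 2 copies limma called none, with 3 higher at an unadjusted p under 0.05. Replicate 1 at 29 °C held the highest level of the 3 libraries for Ssrp and Hsp70Ab, and without it 166 genes were higher than in NLS 1 copy.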

How the data were processed

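RNA from whole flies was sequenced from TruSeq RNA v2 libraries, per the labels' protocols. The authors deposited 1 table of TPM values (transcript shares scaled to transcript length) for 13926 gene symbols in 54 libraries. BDGP6 and dm6 are named per the submitters' processing notes. The aligner is not given in the sources used here, nor are the counting tool and its use of strand. Read depth is unknown, so no counting error is given. TPM are shares of a library, so a change in abundant genes moves all others. Near-identical or overlapping genes (Hsp70 copies, trypsins, Jonah proteases, mannosidases) may exchange reads.

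A gene was tested if 3 or more libraries had 1 TPM or more (12555 genes), and 71 genes were at 0 throughout. All tests used limma 3.58.1 in R 4.3.3 on log2(TPM + 1), with 1 mean per strain and temperature over the 54 libraries (36 residual degrees of freedom) and Benjamini-Hochberg adjustment over all genes tested at 0.05. Fold changes are on that scale, which understates low genes. The same fit gave the difference of differences between strains. The scripts were tested on simulated data. Positions come from the BDGP6 annotation; 12783 symbols matched it directly, 1087 through synonyms and 56 not at all.

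Genes were named by rule: the 10 largest rises and 10 largest falls between 29 °C and 18 °C among genes that passed, whose groups did not overlap, that had a mean of at least 5 TPM in either group and a symbol other than a CG or CR number; likewise 4 and 4 for 25 °C against the ends, 5 and 5 against w1118, and 3 and 3 against each transgenic strain, the strain contrasts without the rule on overlap; and up to 4 genes with the smallest adjusted p per gene list. Heat-shock, nuclear and muscle genes of the strain contrasts were picked by hand outside this rule, and flagged only if they passed. The comparison, its members and the 49 gene lists were chosen with earlier results of these data known. Of the list entries, 14 were not found in the table. Alternatives were another pseudocount, no filter, 2 other scalings, a replicate block, no intensity trend, fits on fewer libraries, and leaving out each library.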

Additional observations from a re-analysis of the deposited data

Results flagged for a closer look

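For these genes the difference between 29 °C and 18 °C in the NLS 2 copies strain differed from that in another strain. The test was of the difference itself in limma, which 19.9% of all genes passed against w1118. The heat-shock, nuclear and muscle genes were picked by hand and are listed because they passed. The others are the largest by the naming rule. Values are the difference of log2 differences, the NLS 2 copies strain minus the strain named.

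Against w1118 the digestive protease Jon66Ci was higher by 2.86, the seminal peptide gene Acp54A1 by 2.58, vanin-like by 2.51, and the mannosidases LManIII and LManIV by 2.40 each. Acp54A1 went in opposite directions in the strains. It stood at 1851, 1853 and 3189 TPM at 29 °C and 879, 938 and 874 TPM at 18 °C in NLS 2 copies, against 762, 857 and 673 TPM at 29 °C and 1944, 1822 and 1772 TPM at 18 °C in w1118. The attacin AttD was lower by -4.04, TotA by -3.67, TotC by -3.56, the maltase Mal-B1 by -3.19 and the defensin Def by -2.69. Mal-B1 stood at 2.89, 3.87 and 4.35 TPM at 29 °C and 5.2, 4.41 and 3.74 TPM at 18 °C in NLS 2 copies, against 83.5, 81.0 and 83.9 TPM at 29 °C and 7.55, 11.5 and 10.4 TPM at 18 °C in w1118.

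Among stress and nuclear genes against w1118, the values were 1.73 for Hsp22, 0.69 for l(2)efl, 0.32 for Hsp26, 0.41 for Hsp83, 0.43 for Hsp68, 1.23 for Hsp70Ab, 0.94 for Hsp70Bb and 1.36 for Hsp70Bc. They were 0.80 for Ote, 0.60 for bocks, 0.39 for baf, 0.36 for Lam and 1.04 for Ssrp. In muscle Mf was at -0.96 and TpnC41C at -0.73.

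Against NLS 1 copy the values were 1.80 for the protease Jon99Fi, 1.76 for the cytochrome P450 Cyp310a1, 1.17 for Cyp4p3, 0.47 for Hsp83, 0.36 for DnaJ-1 and 0.62 for Ssrp, and -6.48 for the immune peptide edin, -4.28 for AttD and -3.54 for Def. Against Mito 2 copies they were 1.98 for the protease Jon65Aii, 1.91 for LManIV, 1.79 for the juvenile hormone esterase Jhe, 0.97 for l(2)efl, 1.71 for Hsp70Ab and 0.59 for Ssrp, and -6.52 for the drosocin gene Dro, -6.15 for edin and -4.78 for AttA.

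The immune genes varied widely between libraries of a group. Dro and AttA were highest in NLS 2 copies replicate 3 at 18 °C, at 847 and 210 TPM, and in Mito 2 copies replicate 1 at 29 °C, at 531 and 96.9 TPM. The Dro call against Mito 2 copies was lost in 11 alternative settings and that of AttA in 7. Without that NLS library Dro stood at -4.41 (adjusted p = 0.219) and AttA at -3.25 (adjusted p = 0.18). The Def call was lost in 9 settings against w1118 and in 5 against NLS 1 copy, with adjusted p between 0.05195 and 0.1136 in the 9.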

How the results depend on the processing

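Of the gene counts between 29 °C and 18 °C none moved by over 1.5 times under any setting, and leaving out 1 library gave 3315 to 3631 genes higher and 2650 to 2999 lower. No called value of a named gene changed sign, though some uncalled values did, as those of DptA, Dro and AttA, which went to 1.56, 0.71 and 1.03 without 18 °C replicate 3, against -0.40, -1.40 and -0.50 with it. Among named genes 51 values lost their call and 13 gained one, against 3716 on the same side of the threshold. These values cover each gene only in the comparison that named it by rule. Strain differences of the heat-shock, nuclear and muscle genes, picked outside the rule, were not among them. Genes lower at 25 °C than the ends ranged from 965 (without 25 °C replicate 3) to 1824 over left-out libraries. With median-ratio scaling 1975 genes were lower against w1118 and 444 against NLS 1 copy. Against Mito 2 copies, quantile scaling gave 469 higher, and a fit on the strains compared gave 165 higher and 210 lower. Against NLS 1 copy, leaving out 1 library gave 146 to 528 genes higher, with 528 without NLS 1 copy 29 °C replicate 2, 149 and 146 without its replicates 1 and 3, 169 without NLS 1 copy 18 °C replicate 1, and 155 and 166 without NLS 2 copies 18 °C replicate 3 and 29 °C replicate 1, and it gave 159 to 301 lower. Against Mito 2 copies it gave 231 (without its 29 °C replicate 2) to 359 lower. The cause was not tested. Deviations of libraries with the same replicate number at 29 °C and 18 °C correlated by 0.03, 0.004 and 0.06. Between 29 °C and 25 °C they correlated by 0.12, 0.11 and 0.03, and between 25 °C and 18 °C by 0.03, -0.04 and -0.08. These values show no strong shared deviation, but cannot tell whether libraries of the same number were collected together. The fit with a replicate block gave 3742 higher and 3031 lower.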

Other observations

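Several gene groups not described above split between rises and falls at 29 °C, where 29.8% of all genes tested rose and 24.2% fell. Of 70 cuticle and chitin genes 12 rose (17.1%) and 23 fell (32.9%). The chitinase Cht9 stood at 69.7, 67.3 and 69.0 TPM at 29 °C and 10.8, 12.4 and 9.92 TPM at 18 °C (log2 2.54), and Cpr62Bb at 21.4, 25.9 and 25.5 TPM at 29 °C and 60.8, 61.1 and 59.8 TPM at 18 °C (log2 -1.29). Of 45 odorant-binding and receptor genes 12 rose (26.7%), including Obp99b (log2 1.60), and 19 fell (42.2%), including Obp28a (log2 -1.30). Of 33 neuropeptide genes 12 rose (36.4%), including Proc and CCAP (log2 1.07 each), and 9 fell (27.3%), including the tachykinin gene Tk (log2 -0.65), shares near those of all genes, with a median of 0.02. The neighbouring cytochrome P450 genes Cyp4p1 and Cyp4p2 rose by 1.64 and 1.72.

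Of 25 autophagy genes 11 fell (44%) and 3 rose (12%). Atg8a, which coats the growing autophagosome, stood at 386, 368 and 392 TPM at 29 °C and 506, 504 and 529 TPM at 18 °C (log2 -0.42). Of 30 vacuolar proton pump subunits, which acidify lysosomes, 11 fell (36.7%) and 4 rose (13.3%). In insulin signalling the transcription factor foxo fell by 0.52 and the kinase S6k rose by 0.38. On the Y chromosome 11 of 18 tested genes rose and 1 fell (median 0.40), including WDY at 7.41, 6.88 and 6.66 TPM at 29 °C and 3.97, 3.65 and 3.58 TPM at 18 °C.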
